A study of Mus musculus with 12 samples.

Results

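The 10 genes described here code for the enzymes and transporters that macrophages use to make nitric oxide, to take up, rebuild and break down arginine, and to make itaconate: Nos2, Arg1, Arg2, Ass1, Asl, Slc7a1, Slc7a2, Gch1, Acod1 and Odc1. They were chosen by name, for their roles in these pathways, and with earlier results of these data known, so the counts called among them do not come from a blind choice. They are 10 of the 54532 genes in the deposited count table, each with 1 entry. Of the 10, 9 had enough counts to enter the statistical test, and Arg1 did not.

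Inducible nitric oxide synthase, the product of Nos2, turns arginine into nitric oxide and citrulline and needs the cofactor tetrahydrobiopterin, whose synthesis starts with GTP cyclohydrolase, the product of Gch1. Arginine enters the cell through the cationic amino acid transporters encoded by Slc7a1 and Slc7a2, and citrulline is turned back into arginine by argininosuccinate synthase (Ass1) and argininosuccinate lyase (Asl). The arginases Arg1, in the cytosol, and Arg2, in mitochondria, split the same arginine into urea and ornithine, and ornithine decarboxylase (Odc1) takes ornithine into the polyamines. Acod1, also known as Irg1, codes for the mitochondrial enzyme that makes itaconate from the tricarboxylic acid cycle intermediate cis-aconitate. In mouse macrophages Nos2 and Acod1 are known as genes of the response to bacterial products, and Arg1 as a gene of the response to interleukin-4.

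The cells were mouse bone marrow-derived macrophages (BMDM). They were grown from marrow of 8-week-old mice in DMEM with 10% fetal bovine serum, antibiotic and 10 ng/ml M-CSF. M-CSF is the growth factor that turns precursors into macrophages. The 4 groups of 3 libraries each were LPS-treated Lyz2-Cre-Hdac3f/f cells, LPS-treated Hdac3f/f cells and their untreated counterparts, again Lyz2-Cre-Hdac3f/f and Hdac3f/f. Lipopolysaccharide (LPS), a component of the outer membrane of Gram-negative bacteria, was given at 500 ng/ml for 4 h. All 4 groups carry the floxed Hdac3 alleles, and in Lyz2-Cre-Hdac3f/f cells Cre is made from the Lyz2 locus, which is active in macrophages, monocytes and granulocytes. Hdac3 codes for a histone deacetylase of the nuclear receptor corepressor complexes. The labels do not say whether libraries of a group are separate animals, so the p-values measure the spread between these libraries, which may be technical.

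Library totals ran from 16553432 to 18706990 counts. The Hdac3 count checks the genotype labels only in part, because it covers the whole gene and not the floxed exons alone: Hdac3 had 37.9, 34.4 and 38.9 CPM in Lyz2-Cre-Hdac3f/f cells with LPS, against 40.7, 39.1 and 38.7 CPM in Hdac3f/f cells under LPS. Without LPS, Hdac3 had 36.6, 33.1 and 35.1 CPM in Lyz2-Cre-Hdac3f/f cells, against 36.3, 39.2 and 39.7 CPM in Hdac3f/f cells. Hdac3 counts were not called different between genotypes (log2 fold change -0.09 ± 0.09 SE with LPS, adjusted p = 0.473, and -0.14 ± 0.09 without, adjusted p = 0.352), so they neither separate the genotypes nor measure the deletion. Levels are given as CPM, counts scaled to library depth, after TMM scaling. Log2 fold changes are given ± SE, and a gene is called when its Benjamini-Hochberg adjusted p from edgeR's quasi-likelihood test, over all 14286 tested genes and with n = 3 libraries in each group, is under 0.05. The first untreated Lyz2-Cre-Hdac3f/f library stands apart in Lyz2, the lysozyme gene that carries the Cre, with 31.0 CPM where the other untreated Lyz2-Cre-Hdac3f/f libraries had 5181 and 5637 CPM and the untreated Hdac3f/f libraries 9318 to 11990 CPM. Member calls in the untreated genotype comparison and the interaction are therefore also given without it. Without it all 7 members called in the LPS response of Lyz2-Cre-Hdac3f/f cells stayed called, with log2 responses of 8.82 for Nos2, 6.34 for Acod1, 5.93 for Slc7a2, 3.48 for Gch1, 3.00 for Arg2, 2.91 for Ass1 and 0.61 for Slc7a1.

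All 10 macrophage markers were detected in every group, with summed levels of 15524 to 16115 CPM in Lyz2-Cre-Hdac3f/f cells with LPS, 15612 to 18469 CPM in Hdac3f/f cells under LPS, 8790 to 9533 CPM in untreated Lyz2-Cre-Hdac3f/f cells and 8635 to 9778 CPM in untreated Hdac3f/f cells. Of the 8 stromal markers, all detected in every group, 7 had lower means in Lyz2-Cre-Hdac3f/f cells with LPS and 7 without, and Thy1 was higher in both. They summed to 53.6 to 74.1 CPM in Lyz2-Cre-Hdac3f/f cells with LPS, against 818 to 1698 CPM in Hdac3f/f cells under LPS, and to 21.2 to 133 CPM in untreated Lyz2-Cre-Hdac3f/f cells, against 285 to 1354 CPM in untreated Hdac3f/f cells. The collagens carry most of these sums, with Col1a1 at 13.7 CPM on average in Lyz2-Cre-Hdac3f/f cells with LPS, against 726 CPM in Hdac3f/f cells under LPS. The 11 T, B and NK cell markers summed to 72.3 to 82.3, 99.6 to 133, 121 to 183 and 201 to 348 CPM in the order LPS-treated Lyz2-Cre-Hdac3f/f, LPS-treated Hdac3f/f, untreated Lyz2-Cre-Hdac3f/f and untreated Hdac3f/f. Most of that sum is Cd4, which averaged 54.8, 102, 130 and 242 CPM in that order, while 9 of the 11 markers had higher means in Lyz2-Cre-Hdac3f/f cells in each condition, such as Cd3e, which under LPS averaged 2.25 CPM, against 0.727 CPM in Hdac3f/f cells. The 8 mast cell and basophil markers, all detected in every group, summed to 208 to 366, 204 to 288, 162 to 237 and 103 to 127 CPM in that order. The dendritic cell markers summed to 42.3 to 51.6, 33.8 to 40.2, 10.5 to 19.4 and 4.50 to 6.07 CPM, with Cd209a at 0 in all groups. The endothelial markers summed to 82.9 to 91.5, 86.4 to 112, 101 to 187 and 30.7 to 92.4 CPM. The neutrophil markers summed to 103 to 371, 131 to 302, 57.1 to 161 and 219 to 382 CPM, with Ly6g and Retnlg at 0 in Hdac3f/f cells with LPS. The part of these other cells in the genotype differences below was not tested, and in bulk RNA a change in the number of cells of a type and a change in RNA per cell cannot be told apart.

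LPS raised most of the nitric oxide, arginine and itaconate genes in both genotypes. In Lyz2-Cre-Hdac3f/f cells 7 of the 9 tested members rose and none fell, where 25.2% of all tested genes were called higher, 27.7% lower and 52.9% in either direction. In Hdac3f/f cells 9 of 9 rose, where 28.0% of all tested genes were called higher, 32.1% lower and 60.1% in either direction. The median log2 response of the members was 2.82 in Lyz2-Cre-Hdac3f/f cells and 4.05 in Hdac3f/f cells, against -0.08 in each genotype over all tested genes. Nos2, Acod1 and Slc7a2 had the largest responses of the members in both genotypes, and Asl and Odc1 the smallest.

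The genotype differences that were called were all upward without LPS and all downward with LPS. Without LPS, 4 of the 9 tested members were higher in Lyz2-Cre-Hdac3f/f cells than in Hdac3f/f cells (Nos2, Arg2, Acod1 and Slc7a1) and none was lower, where 5.12% of all tested genes were called higher, 6.66% lower and 11.8% in either direction. With LPS, 3 of 9 were lower in Lyz2-Cre-Hdac3f/f cells (Acod1, Ass1 and Gch1) and none was higher, where 16.9% of all tested genes were called lower, 15.7% higher and 32.6% in either direction. The share of members called in either direction with LPS is thus near that of all tested genes. The LPS response itself was smaller in Lyz2-Cre-Hdac3f/f cells for 5 of 9 by the interaction test (Nos2, Acod1, Arg2, Gch1 and Ass1) and larger for none, where 5.54% of all tested genes were called with a lower response, 2.58% with a higher one and 8.12% in either direction. Without the first untreated Lyz2-Cre-Hdac3f/f library these counts were 3 of 9 in the untreated comparison, with Slc7a1 lost, and 4 of 9 in the interaction, with Arg2 lost, and the calls over all genes fell to 905 and 722, against 1684 and 1160 with it. The interaction count was 3 of 9 without the second untreated Hdac3f/f library, the third Hdac3f/f LPS library, or the first or second Lyz2-Cre-Hdac3f/f LPS library.

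**Figure D1:**
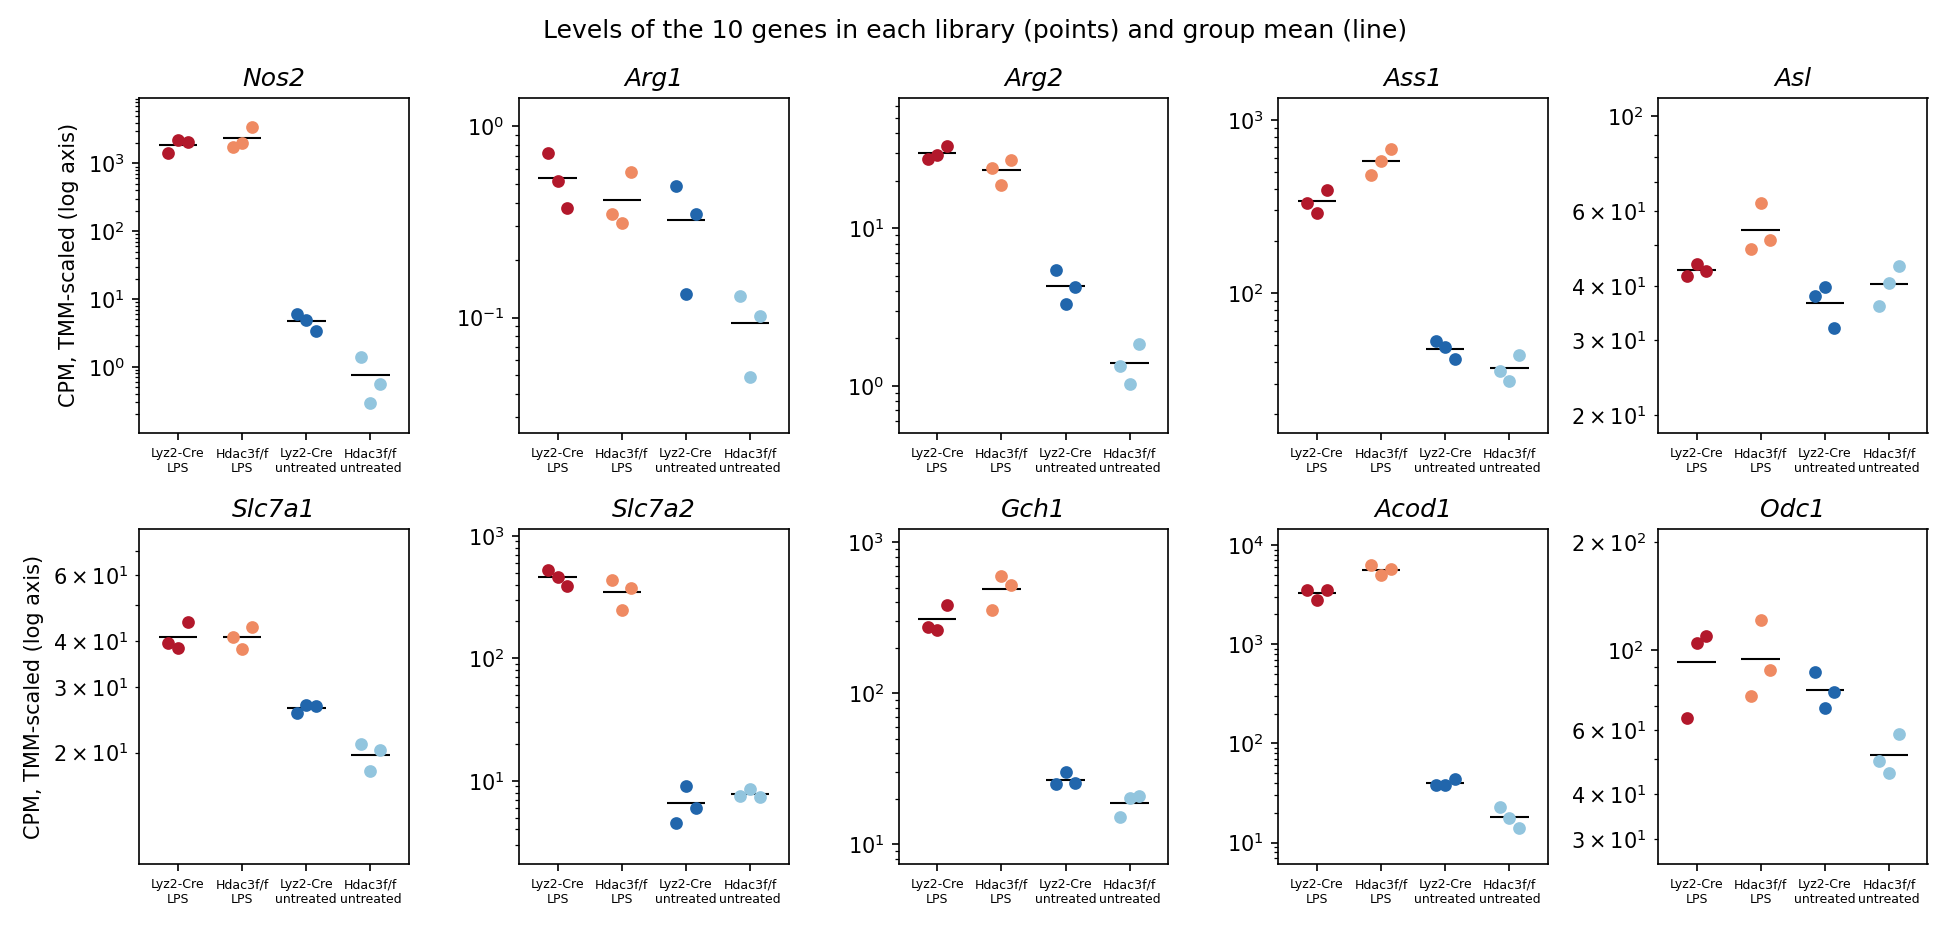
Level of each of the 10 genes in each library, in CPM after TMM scaling on log axes that differ between panels; points are the 3 libraries of a group and lines are group means. Nos2, Arg2, Ass1, Slc7a1, Slc7a2, Gch1 and Acod1 lie higher in every LPS library than in any untreated library. Of the tested members, Nos2, Arg2, Slc7a1, Gch1, Acod1 and Odc1 lie higher in every untreated Lyz2-Cre-Hdac3f/f library than in any untreated Hdac3f/f library. The untreated differences in Gch1 and Odc1 were not called. The share of all tested genes whose libraries separate fully between groups is not given here. Arg1 stays under 1 CPM everywhere.

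Nitric oxide synthesis was the step with the widest range of levels across libraries. Nos2 (ENSMUSG00000020826; chr11:78920787-78960254, plus strand, mm10) had 1430.1, 2186 and 2081 CPM in Lyz2-Cre-Hdac3f/f cells with LPS, against 5.93, 4.98 and 3.43 CPM in untreated Lyz2-Cre-Hdac3f/f cells. In Hdac3f/f cells Nos2 had 1765, 2021 and 3396 CPM with LPS, against 1.39, 0.292 and 0.563 CPM without. The LPS libraries of the genotypes overlapped, and the untreated libraries did not: each untreated Lyz2-Cre-Hdac3f/f library lay above each untreated Hdac3f/f library. The untreated Hdac3f/f values rest on 32, 6 and 11 counts, so the size of the Nos2 response in Hdac3f/f cells is less precise than the counts of 25400 to 46800 with LPS would allow.

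The log2 LPS response of Nos2 was 8.63 ± 0.42 in Lyz2-Cre-Hdac3f/f cells (adjusted p = 3.6e-09) and 11.59 ± 0.49 in Hdac3f/f cells (adjusted p = 6.7e-10). The difference of these responses, -2.96 ± 0.54, was called (adjusted p = 0.00624). It came with an untreated level 2.63 ± 0.45 higher in Lyz2-Cre-Hdac3f/f cells (log2; adjusted p = 0.00415), while the levels with LPS were not called different (-0.33 ± 0.29, adjusted p = 0.402). Without the first untreated Lyz2-Cre-Hdac3f/f library the untreated difference was 2.44 ± 0.49 (adjusted p = 0.0153) and the difference of responses -2.78 ± 0.57 (adjusted p = 0.0165).

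Gch1 (ENSMUSG00000037580; chr14:47153895-47189413, minus strand), which opens the pathway to the synthase's cofactor, had 277, 264 and 385 CPM in Lyz2-Cre-Hdac3f/f cells with LPS, against 354, 598 and 520 CPM in Hdac3f/f cells under LPS. Untreated, it had 25.1, 30.0 and 25.6 CPM in Lyz2-Cre-Hdac3f/f cells, against 15.2, 20.4 and 20.9 CPM in Hdac3f/f cells. Gch1 rose with LPS by 3.52 ± 0.22 in Lyz2-Cre-Hdac3f/f cells (log2; adjusted p = 2.9e-08) and by 4.70 ± 0.23 in Hdac3f/f cells (adjusted p = 2.3e-09). With LPS it was lower in Lyz2-Cre-Hdac3f/f cells by the test (-0.67 ± 0.20, adjusted p = 0.0213), although 1 Lyz2-Cre-Hdac3f/f library lay above 1 Hdac3f/f library. That call was lost without the second (adjusted p = 0.103) or the third (0.0737) Hdac3f/f LPS library, without the first (0.0907) or second (0.0890) Lyz2-Cre-Hdac3f/f LPS library, and with library totals as the only scaling (0.0816). The untreated difference was 0.52 ± 0.21 and was not called (adjusted p = 0.122), though the libraries did not overlap. The difference of responses was -1.18 ± 0.28 (adjusted p = 0.0243; -1.23 ± 0.31 and 0.0415 without the first untreated Lyz2-Cre-Hdac3f/f library). That call was lost without the second untreated Hdac3f/f library (adjusted p = 0.0514), the second (0.0610) or the third (0.0694) Hdac3f/f LPS library, the second untreated Lyz2-Cre-Hdac3f/f library (0.0625), or the first (0.0794) or second (0.0644) Lyz2-Cre-Hdac3f/f LPS library.

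Of the arginine transporters, Slc7a2 (CAT2; ENSMUSG00000031596; chr8:40862396-40922308, plus strand) was strongly induced and Slc7a1 (CAT1; ENSMUSG00000041313; chr5:148327410-148399904, minus strand) weakly. Slc7a2 had 525, 462 and 388 CPM in Lyz2-Cre-Hdac3f/f cells with LPS, against 4.52, 9.03 and 6.02 CPM in untreated Lyz2-Cre-Hdac3f/f cells. In Hdac3f/f cells it had 434, 247 and 372 CPM with LPS, against 7.55, 8.57 and 7.31 CPM without. The genotypes overlapped in both conditions, and every LPS library lay far above every untreated one. The log2 responses were 6.13 ± 0.28 in Lyz2-Cre-Hdac3f/f cells (adjusted p = 2.4e-09) and 5.49 ± 0.27 in Hdac3f/f cells (adjusted p = 2.7e-09). Slc7a2 was the only tested member whose response was larger in Lyz2-Cre-Hdac3f/f cells, and that difference was not called (0.64 ± 0.34, adjusted p = 0.284).

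Slc7a1, the transporter that most cell types express, had 39.4, 38.4 and 44.9 CPM in Lyz2-Cre-Hdac3f/f cells with LPS, against 41.0, 38.1 and 43.6 CPM in Hdac3f/f cells under LPS. Untreated, it had 25.6, 26.9 and 26.7 CPM in Lyz2-Cre-Hdac3f/f cells, against 21.1, 17.9 and 20.3 CPM in Hdac3f/f cells. With LPS the genotypes shared a range (log2 difference -0.0016 ± 0.11, adjusted p = 0.993), and without LPS all Lyz2-Cre-Hdac3f/f libraries lay above all Hdac3f/f libraries (0.42 ± 0.11, adjusted p = 0.0248). The untreated call was lost when any 1 of the 6 untreated libraries was left out except the first Hdac3f/f library (adjusted p = 0.0619 to 0.125) and when no filter on low counts was applied (0.0885). The LPS response of Slc7a1 was 0.63 ± 0.11 in Lyz2-Cre-Hdac3f/f cells (adjusted p = 2.4e-04) and 1.05 ± 0.11 in Hdac3f/f cells (adjusted p = 2.2e-06), and with library totals as the only scaling the first of these was lost (0.24, adjusted p = 0.101). The difference of responses was not called (-0.42 ± 0.15, adjusted p = 0.107).

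Of the enzymes that rebuild arginine from citrulline, Ass1, the first, was induced in every LPS library, and Asl, the second, changed little. Ass1 (ENSMUSG00000076441; chr2:31470207-31520672, plus strand) had 331, 290.2 and 393 CPM in Lyz2-Cre-Hdac3f/f cells with LPS, against 478, 580 and 675 CPM in Hdac3f/f cells under LPS. Untreated, it had 53.1, 48.8 and 41.6 CPM in Lyz2-Cre-Hdac3f/f cells, against 35.6, 31.0 and 43.9 CPM in Hdac3f/f cells. With LPS every Lyz2-Cre-Hdac3f/f library lay below every Hdac3f/f library, and without LPS the genotypes overlapped. The difference with LPS was -0.77 ± 0.16 (log2; adjusted p = 0.00432) and without LPS 0.38 ± 0.17 (adjusted p = 0.158). The responses were 2.82 ± 0.18 in Lyz2-Cre-Hdac3f/f cells (adjusted p = 3.0e-08) and 3.97 ± 0.18 in Hdac3f/f cells (adjusted p = 1.5e-09), and differed by -1.15 ± 0.23 (adjusted p = 0.0109; -1.07 ± 0.25 and 0.0295 without the first untreated Lyz2-Cre-Hdac3f/f library).

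Asl (ENSMUSG00000025533; chr5:130011258-130029247, minus strand) averaged 43.6 ± 1.39 CPM in Lyz2-Cre-Hdac3f/f cells with LPS, 54.3 ± 7.32 CPM in Hdac3f/f cells under LPS, 36.6 ± 4.11 CPM in untreated Lyz2-Cre-Hdac3f/f cells and 40.4 ± 4.30 CPM in untreated Hdac3f/f cells (SD, n = 3 each). Its LPS response was 0.42 ± 0.13 in Hdac3f/f cells (adjusted p = 0.0102) and was not called in Lyz2-Cre-Hdac3f/f cells (0.25 ± 0.13, adjusted p = 0.112). With library totals as the only scaling both responses turned negative and neither was called. Ass1 and Asl act one after the other, and their responses were not tested against each other.

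Arg1 transcripts were scarce, and arginase transcripts came almost wholly from Arg2. Arg1 (ENSMUSG00000019987; chr10:24915221-24927484, minus strand) had 12, 9 and 6 counts in Lyz2-Cre-Hdac3f/f cells with LPS, against 5, 4 and 8 counts in Hdac3f/f cells with LPS. Untreated, Arg1 had 10, 3 and 7 counts in Lyz2-Cre-Hdac3f/f cells, against 3, 1 and 2 counts in Hdac3f/f cells. The groups overlapped or touched in every comparison of these counts except LPS against untreated in Hdac3f/f cells. An exact two-sided permutation test of the CPM values gave p = 0.1 for that comparison and for the untreated genotype difference, 0.2 for the response of Lyz2-Cre-Hdac3f/f cells to LPS and 0.4 for the genotype difference with LPS, where 0.1 is the smallest p that 3 against 3 libraries allow. When genes with low counts were kept in the edgeR fit, the Arg1 response in Hdac3f/f cells was 2.04 ± 0.79 (log2; adjusted p = 0.0361), and its untreated genotype difference was not called (1.66 ± 0.77, adjusted p = 0.217).

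Arg2 (ENSMUSG00000021125; chr12:79130777-79156301, plus strand) had 27.5, 29.1 and 33.2 CPM in Lyz2-Cre-Hdac3f/f cells with LPS, against 24.0, 18.7 and 27.2 CPM in Hdac3f/f cells under LPS. Untreated, it had 5.44, 3.29 and 4.23 CPM in Lyz2-Cre-Hdac3f/f cells, against 1.34, 1.02 and 1.84 CPM in Hdac3f/f cells. In each condition all Lyz2-Cre-Hdac3f/f libraries lay above all Hdac3f/f libraries. The untreated difference was called (1.62 ± 0.25, adjusted p = 0.00187; 1.42 ± 0.25 and 0.00834 without the first untreated Lyz2-Cre-Hdac3f/f library), and the difference with LPS was not (0.36 ± 0.19, adjusted p = 0.169). Arg2 rose with LPS by 2.79 ± 0.21 in Lyz2-Cre-Hdac3f/f cells (adjusted p = 2.1e-07) and by 4.05 ± 0.24 in Hdac3f/f cells (adjusted p = 1.3e-08).

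The difference of the Arg2 responses, -1.26 ± 0.31, was called (adjusted p = 0.0284), but was lost with library totals as the only scaling (adjusted p = 0.0573). It was also lost without the second untreated Hdac3f/f library (adjusted p = 0.0884), the third Hdac3f/f LPS library (0.0742), the first (0.0705) or the third (0.0605) untreated Lyz2-Cre-Hdac3f/f library, or the first (0.0794) or second (0.0649) Lyz2-Cre-Hdac3f/f LPS library. Arg2 shares its locus with Vti1b, a vesicle fusion gene on the opposite strand with 16918 counts over all libraries, against 2807 for Arg2, and the strand used in counting is not given in the sources used here, so reads of the pair may have been exchanged. Vti1b itself was 0.29 ± 0.10 higher with LPS in Lyz2-Cre-Hdac3f/f cells (log2; adjusted p = 0.0347). In Hdac3f/f cells Vti1b was 0.26 ± 0.10 higher with LPS (adjusted p = 0.0428). Its untreated genotype difference was not called (-0.20 ± 0.10, adjusted p = 0.227). An exchange of reads between Arg2 and Vti1b was not tested.

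Odc1 (ENSMUSG00000011179; chr12:17544794-17551505, plus strand), which commits ornithine to the polyamines, had 65.1, 104.7 and 109.7 CPM in Lyz2-Cre-Hdac3f/f cells with LPS, against 74.6, 121 and 88.0 CPM in Hdac3f/f cells under LPS. Untreated, it had 87.2, 69.3 and 76.7 CPM in Lyz2-Cre-Hdac3f/f cells, against 49.3, 45.8 and 58.8 CPM in Hdac3f/f cells. All untreated Lyz2-Cre-Hdac3f/f libraries lay above all untreated Hdac3f/f libraries, and the LPS libraries overlapped. LPS raised Odc1 in Hdac3f/f cells (0.88 ± 0.21, adjusted p = 0.00253; 0.23 and 0.259 with library totals as the only scaling), and its response in Lyz2-Cre-Hdac3f/f cells was not called (0.26 ± 0.21, adjusted p = 0.307). The untreated difference of 0.60 ± 0.21 missed the threshold (adjusted p = 0.0802), and the difference of responses was not called (-0.62 ± 0.29, adjusted p = 0.230).

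Acod1 (ENSMUSG00000022126; chr14:103046977-103056573, plus strand), the itaconate gene, was the most abundant of the 10 with LPS, also per length of transcript. It had 3495, 2808 and 3519 CPM in Lyz2-Cre-Hdac3f/f cells with LPS, against 6256, 4956 and 5763 CPM in Hdac3f/f cells under LPS. Untreated, it had 37.8, 38.0 and 43.3 CPM in Lyz2-Cre-Hdac3f/f cells, against 22.6, 17.9 and 14.1 CPM in Hdac3f/f cells. The genotypes did not overlap in either condition, and their order was opposite: Lyz2-Cre-Hdac3f/f libraries were the higher ones without LPS and the lower ones with it.

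The untreated difference in Acod1 was 1.12 ± 0.17 (log2; adjusted p = 0.00175) and the difference with LPS -0.79 ± 0.16 (adjusted p = 0.00357). LPS raised Acod1 by 6.36 ± 0.20 in Lyz2-Cre-Hdac3f/f cells (adjusted p = 1.3e-10) and by 8.28 ± 0.22 in Hdac3f/f cells (adjusted p = 1.9e-11). The responses differed by -1.91 ± 0.23 (adjusted p = 7.8e-04). Acod1 was the only member called in all 5 comparisons. Without the first untreated Lyz2-Cre-Hdac3f/f library its untreated difference was 1.15 ± 0.19 (adjusted p = 0.00576) and its difference of responses -1.94 ± 0.25 (adjusted p = 0.00198). It was also the tested member with the lowest adjusted p in the interaction.

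**Figure D2:**
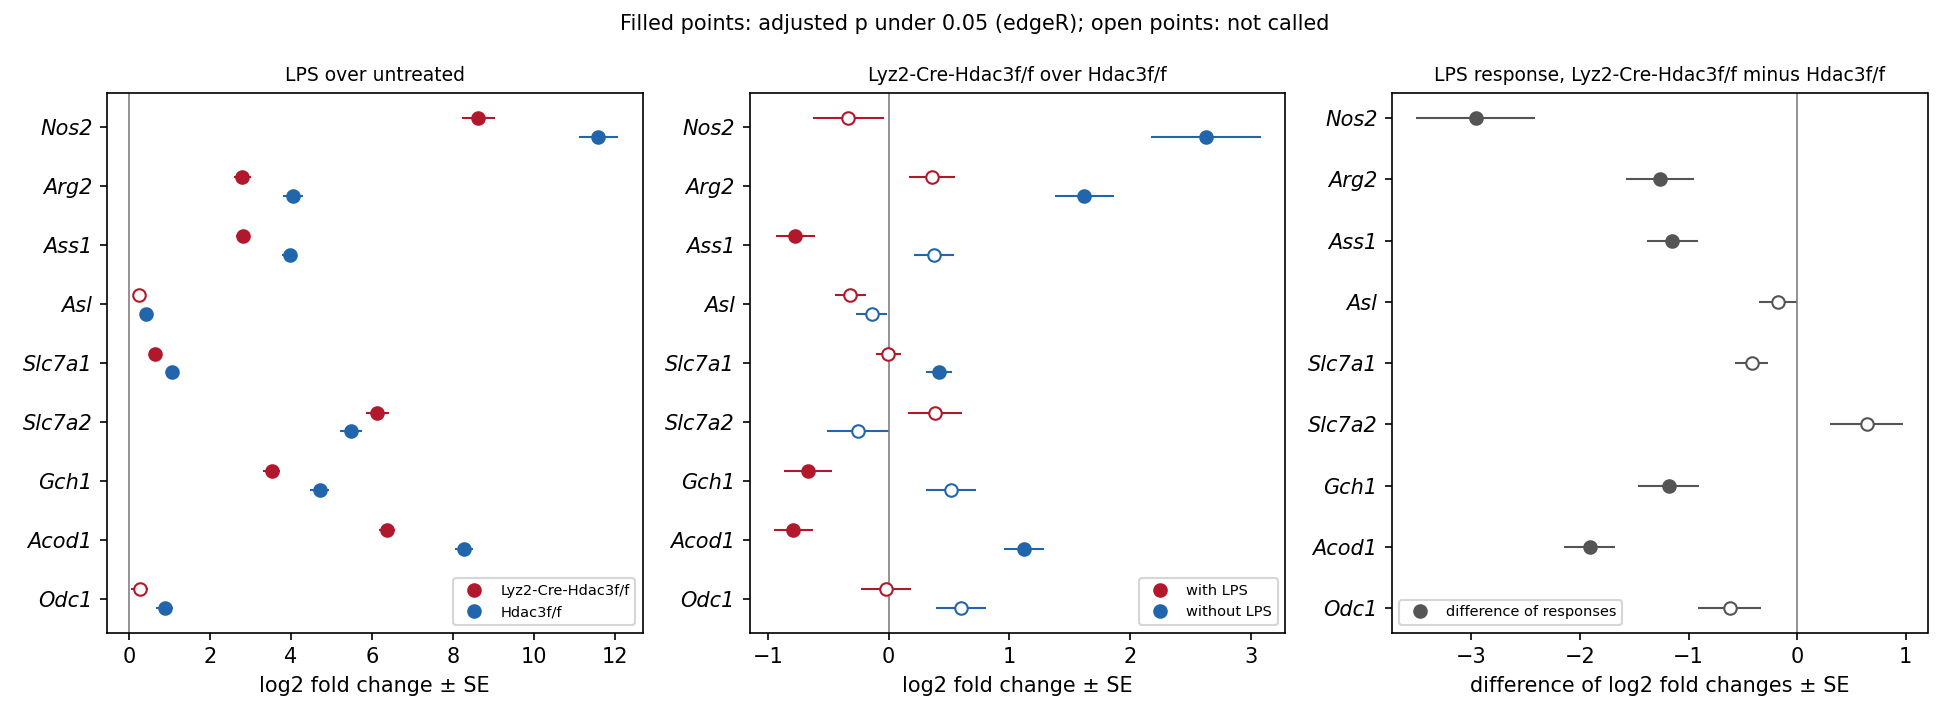
Log2 fold changes with their SE for the 9 tested members: LPS over untreated in each genotype (left), Lyz2-Cre-Hdac3f/f over Hdac3f/f with and without LPS (middle), and the difference between the genotypes in that response (right; Hdac3f/f subtracted). Filled points passed an adjusted p of 0.05 by edgeR; Acod1 sits at -0.79 with LPS and 1.12 without, and Nos2, Arg2, Ass1, Gch1 and Acod1 are the filled points left of 0 on the right.

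The authors' deposited table of fold changes, whose ratio runs the other way (Hdac3f/f over Lyz2-Cre-Hdac3f/f) and whose test is not named, gives the same signs for the called members once turned. In the authors' deposited table the untreated log2 ratio of Nos2 is -2.63, that of Arg2 -1.59 and that of Acod1 -1.09. The authors' deposited table also passes 0.05 for untreated Odc1 (-0.56, adjusted p = 0.00168) and Gch1 (-0.48, adjusted p = 0.0375), which were not called here. With LPS, the authors' deposited table gives log2 ratios of 0.80 for Acod1, 0.78 for Ass1 and 0.68 for Gch1.

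The scaling of the libraries bears on these directions. TMM factors were 0.896 to 0.937 in Lyz2-Cre-Hdac3f/f cells with LPS, 0.716 to 0.822 in Hdac3f/f cells with LPS, 1.16 to 1.23 in untreated Lyz2-Cre-Hdac3f/f cells and 1.12 to 1.26 in untreated Hdac3f/f cells. With library totals as the only scaling, the median log2 change of all tested genes was -0.46 for the response of Lyz2-Cre-Hdac3f/f cells to LPS, -0.72 for that in Hdac3f/f cells, 0.29 for the genotype difference with LPS and 0.27 for the interaction. The share of called genes that were higher then moved to 24.6% for the response of Lyz2-Cre-Hdac3f/f cells to LPS (47.7% with TMM), 20.2% for that in Hdac3f/f cells (46.5%), 77.1% for the genotype difference with LPS (48.2%) and 71.7% for the interaction (31.8%). Under library totals Acod1 (-0.53, adjusted p = 0.0413) and Ass1 (-0.50, adjusted p = 0.0159) were still lower in Lyz2-Cre-Hdac3f/f cells with LPS, against that upward median. The interaction was still called for Nos2 (-2.70), Acod1 (-1.66), Gch1 (-0.93) and Ass1 (-0.90), and Arg2 with LPS became higher in Lyz2-Cre-Hdac3f/f cells (0.62, adjusted p = 0.0267).

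The promoters of the 3 genes that were lower in Lyz2-Cre-Hdac3f/f cells with LPS are shown so that their sequences can be set beside one another. RefSeq promoter windows (GRCm38.p6, 250 bases before to 50 after the start) were matched for 5 of the 10 members, Ass1, Slc7a1, Odc1, Gch1 and Acod1. Nos2, Arg1, Arg2, Asl and Slc7a2 are named only. The Acod1 window is chr14:103046762-103047061 on the plus strand, the Gch1 window chr14:47189364-47189663 on the minus strand and the Ass1 window chr2:31470020-31470319 on the plus strand. Each is written 5′ to 3′ along the gene, with capitals marking matches to the 8 motifs searched on both strands.

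Acod1: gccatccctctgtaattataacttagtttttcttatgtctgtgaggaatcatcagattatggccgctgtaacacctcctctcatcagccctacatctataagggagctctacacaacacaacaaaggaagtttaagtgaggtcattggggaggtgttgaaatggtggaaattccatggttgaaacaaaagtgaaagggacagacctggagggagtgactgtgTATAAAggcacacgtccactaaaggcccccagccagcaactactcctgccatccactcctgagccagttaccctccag
Gch1: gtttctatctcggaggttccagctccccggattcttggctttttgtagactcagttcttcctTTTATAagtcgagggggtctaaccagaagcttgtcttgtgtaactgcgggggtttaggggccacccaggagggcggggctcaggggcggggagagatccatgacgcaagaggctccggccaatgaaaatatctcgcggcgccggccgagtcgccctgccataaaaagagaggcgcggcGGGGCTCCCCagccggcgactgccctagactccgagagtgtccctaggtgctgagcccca
Ass1: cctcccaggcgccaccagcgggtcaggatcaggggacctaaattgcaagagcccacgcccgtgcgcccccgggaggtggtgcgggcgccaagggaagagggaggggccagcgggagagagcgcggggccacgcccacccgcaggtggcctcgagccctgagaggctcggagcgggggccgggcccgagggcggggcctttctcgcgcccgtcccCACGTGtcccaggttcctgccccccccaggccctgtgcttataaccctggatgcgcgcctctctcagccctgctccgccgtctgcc

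The 3 windows share no motif on the same strand among those searched. The Acod1 window has a TATA box (TATAAA) whose first base is 28 bases before the start. The Gch1 window has a match to the kappa B consensus, the binding sequence of NF-kB factors, 10 bases before the start, and a TATAAA on the reverse strand 188 bases before it. The Ass1 window has the Myc E-box (CACGTG) 36 bases before the start. Over 32851 RefSeq promoter windows of the same length, 13.6% hold TATAAA, 4.51% the kappa B consensus and 7.15% CACGTG on either strand. The other motifs searched had no match in these 3 windows: the interferon-stimulated element core (GAAA and GAAA with any 2 bases between, 3.44% of all windows), the gamma-activated site TTCNNNGAA (8.30%), the STAT6 site (TTC and GAA with any 4 bases between, 6.95%), the AP-1 site TGANTCA (7.81%) and the C/EBP-ATF element TGATGNAA (3.97%). These matches describe letters in a 300-base window, not binding.

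Ratios within a library, which need no scaling between libraries, showed how the paired genes were balanced per length of transcript. Slc7a2 made up 94.4, 93.8 and 91.6% of the transcripts of both transporters in Lyz2-Cre-Hdac3f/f cells with LPS, against 18.2, 29.8 and 22.1% in untreated Lyz2-Cre-Hdac3f/f cells. In Hdac3f/f cells the share was 93.0, 89.1 and 91.5% with LPS, against 31.1, 37.7 and 31.3% without. The main transporter transcript was thus Slc7a1 in every untreated library and Slc7a2 in every LPS library. The untreated share was lower in Lyz2-Cre-Hdac3f/f cells than in Hdac3f/f cells in all 3 libraries (difference of means -9.98 percentage points, exact two-sided permutation p = 0.1, the smallest possible), while with LPS the difference was 2.06 points (exact permutation p = 0.2; 1.00 points without the second Hdac3f/f LPS library and 2.97 points at most with a library left out). Both LPS responses of the share, 69.9 points in Lyz2-Cre-Hdac3f/f cells and 57.9 points in Hdac3f/f cells, had the smallest possible exact permutation p of 0.1.

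Arg2 made up 98.3, 98.9 and 99.3% of arginase transcripts in Lyz2-Cre-Hdac3f/f cells with LPS, against 99.1, 98.9 and 98.7% in Hdac3f/f cells with LPS. Untreated, the share was 94.6, 97.5 and 95.0% in Lyz2-Cre-Hdac3f/f cells, against 94.2, 97.0 and 96.6% in Hdac3f/f cells. The share was higher with LPS in every library of each genotype, and the genotypes overlapped in both conditions (exact permutation p = 0.9 with LPS and 1 without). The untreated difference in means, -0.24 points, was 0.307 points without the first untreated Lyz2-Cre-Hdac3f/f library. The log2 ratio of Nos2 to Arg1 per length was 9.96 to 11.4 in Lyz2-Cre-Hdac3f/f cells with LPS, 11.3 to 11.7 in Hdac3f/f cells with LPS, 2.32 to 4.24 in untreated Lyz2-Cre-Hdac3f/f cells and 1.47 to 2.43 in untreated Hdac3f/f cells. Its denominators are 1 to 12 counts a library, so single values of this ratio are imprecise. The Arg2 share uses the same Arg1 counts and has the same limit. A possible exchange of reads between Arg2 and Vti1b bears on that share too.

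**Figure D3:**
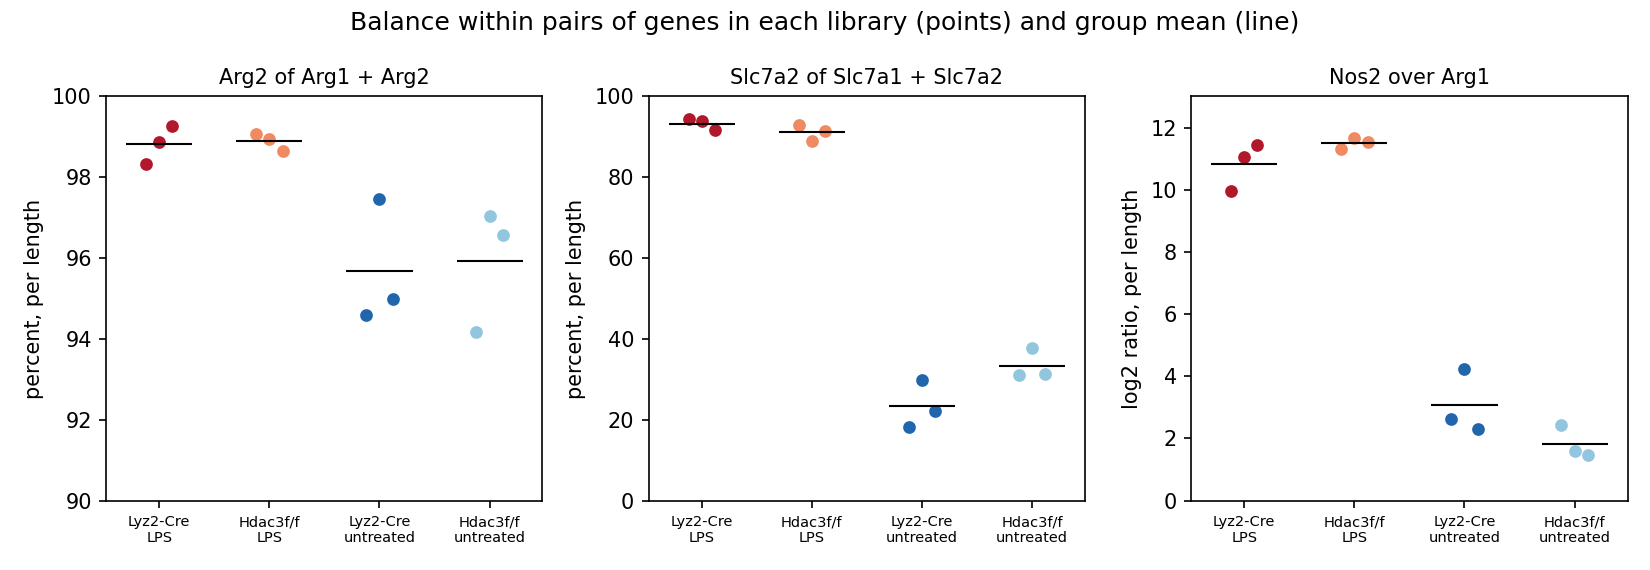
Balance within pairs of members in each library, per length of transcript: the Arg2 share of both arginases in percent (axis from 90), the Slc7a2 share of both transporters in percent, and the log2 ratio of Nos2 to Arg1. Points are libraries and lines group means; the Slc7a2 share lies above 89% in every LPS library and below 38% in every untreated one.

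The order of the members by level per length differed between conditions more than between genotypes. With LPS, Acod1 stood first in both genotypes, at 3136 ± 360.4 TPM in Lyz2-Cre-Hdac3f/f cells and 4414 ± 983 TPM in Hdac3f/f cells (TPM, a depth-scaled level per length computed from counts and deposited gene lengths; SD, n = 3 each). Nos2 was second, at 1079 ± 218 TPM in Lyz2-Cre-Hdac3f/f cells and 1091 ± 372 TPM in Hdac3f/f cells, and Ass1 followed, at 351 ± 40.2 TPM in Lyz2-Cre-Hdac3f/f cells and 482 ± 61.1 TPM in Hdac3f/f cells. Slc7a2 and Gch1 followed and did not separate beyond their spread in Lyz2-Cre-Hdac3f/f cells, at 127 ± 24.2 and 124 ± 20.6 TPM. In Hdac3f/f cells with LPS Gch1 stood above Slc7a2, at 156 ± 24.4 TPM, against 79.4 ± 29.3 TPM. Without LPS the leading members were Odc1 and Ass1, at 77.3 ± 5.60 and 67.2 ± 7.77 TPM in untreated Lyz2-Cre-Hdac3f/f cells and 49.1 ± 4.83 and 49.7 ± 6.98 TPM in untreated Hdac3f/f cells. Arg1 was last in all 4 groups, at 0.139 to 0.615 TPM on average, and Nos2 was last but one in untreated Hdac3f/f cells, at 0.577 ± 0.493 TPM.

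The genes whose pattern lay nearest to that of Nos2 over the 12 libraries, by the root mean square difference of centred log2 CPM among 9595 genes, were Il1b (0.926), Ptgs2 (0.971) and Csf3 (1.06), where the pattern of Nos2 itself has a root mean square of 5.17. Il1b codes for interleukin-1 beta, Ptgs2 for cyclooxygenase-2 and Csf3 for the growth factor G-CSF. Nearest to Acod1, whose own root mean square is 3.70, were Gpr84 (0.340), a receptor for medium-chain fatty acids, Il6 (0.392), the gene of interleukin-6, and Shisa3 (0.451). Nearest to Arg1, with 0.725 of its own, were Prkce (0.320), Csf2rb (0.348) and Gab1 (0.363), but the Arg1 pattern rests on 70 counts in all. These distances describe libraries that share groups and carry no test.

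Around these 10 genes, 6 lists of related genes were followed, also chosen with earlier results of these data known. Without the first untreated Lyz2-Cre-Hdac3f/f library, 9 of the 17 untreated genotype calls of their named genes and 8 of 13 interaction calls were kept, and all 24 calls in the LPS response of that genotype. Of 21 transcription factors, cytokines and receptors that act in Nos2 and Arg1 induction, 16 rose and 2 fell with LPS in Lyz2-Cre-Hdac3f/f cells, and 18 rose and 2 fell in Hdac3f/f cells (medians 0.94 and 1.60, against -0.08 over all tested genes in each). Over all tested genes 25.2% rose and 27.7% fell in Lyz2-Cre-Hdac3f/f cells, and 28.0% rose and 32.1% fell in Hdac3f/f cells. Irf1, an interferon regulatory factor known to act on the mouse Nos2 promoter, rose by 2.54 ± 0.15 in Lyz2-Cre-Hdac3f/f cells, to 606 ± 26.9 CPM, and by 3.94 ± 0.16 in Hdac3f/f cells, to 1133 ± 164 CPM. With LPS 10 of the 21 were lower and 2 higher in Lyz2-Cre-Hdac3f/f cells, where 16.9% of all tested genes were lower and 15.7% higher, with Irf1 at -0.90 ± 0.14 (adjusted p = 6.8e-04) and Irf8, a further factor of that family, at -0.68 ± 0.15 (adjusted p = 0.00483). The number called in that comparison, 12, was 6 without the first and 7 without the second Lyz2-Cre-Hdac3f/f LPS library, and Irf1 and Irf8 stayed called in all 18 other settings run. With library totals as the only scaling 4 of the 21 were lower and 3 higher in that comparison. Nfkb1, an NF-kB subunit gene, rose by 2.72 ± 0.10 in Lyz2-Cre-Hdac3f/f cells, and in Hdac3f/f cells was at 648 ± 4.72 CPM with LPS, against 89.3 ± 3.12 CPM without. Pparg, a nuclear receptor of alternative activation, was lower in untreated Lyz2-Cre-Hdac3f/f cells (-1.41 ± 0.15, adjusted p = 1.8e-04, and -1.38 with adjusted p = 0.00157 without the first of those libraries; 15.6 ± 2.47 CPM, against 41.6 ± 4.11 CPM in untreated Hdac3f/f cells). Ifng was at 1, 2 and 2 counts in untreated Lyz2-Cre-Hdac3f/f cells and at 1, 2 and 0 counts in untreated Hdac3f/f cells, and reached 43.0 to 52.0 CPM with LPS in Lyz2-Cre-Hdac3f/f cells and 37.3 to 86.4 CPM in Hdac3f/f cells.

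Of 14 tested enzymes and proteins that complete tetrahydrobiopterin and handle nitric oxide, 7 fell and 1 rose with LPS in Lyz2-Cre-Hdac3f/f cells, and 7 fell and 1 rose in Hdac3f/f cells (medians -0.50 and -0.70), where 27.7% of all tested genes fell in Lyz2-Cre-Hdac3f/f cells and 32.1% in Hdac3f/f cells. The number called in Lyz2-Cre-Hdac3f/f cells, 8, was 5 without the second untreated or the first LPS library of that genotype. Pts, which acts after Gch1 in the cofactor's synthesis, fell by 1.07 ± 0.21 on the log2 scale in Lyz2-Cre-Hdac3f/f cells (adjusted p = 9.0e-04) and by 0.96 ± 0.22 in Hdac3f/f cells (adjusted p = 0.00190). Spr, the last enzyme of that synthesis, had a log2 response of -0.28 ± 0.18 in Lyz2-Cre-Hdac3f/f cells, which was not called (adjusted p = 0.199), and fell by 1.05 ± 0.18 in Hdac3f/f cells (adjusted p = 2.0e-04). Nostrin, an adaptor known to bind endothelial nitric oxide synthase, was at 2.32 ± 0.838 CPM in Lyz2-Cre-Hdac3f/f cells with LPS, against 4.76 ± 0.704 CPM without, and at 1.56 ± 0.0639 CPM in Hdac3f/f cells under LPS, against 9.48 ± 1.89 CPM without. Between genotypes 3 of the 14 were lower without LPS, where 6.66% of all tested genes were. With LPS 3 were higher and 1 lower, a share near the 32.6% of all tested genes called in that comparison. Those totals of 3 and 4 ran from 1 to 5 and from 2 to 6 when a library was left out, lowest without the second library of either untreated group, and without the second or the third Hdac3f/f LPS library. With library totals as the only scaling 7 were higher and 0 lower with LPS.

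In the list of cationic amino acid transport, apart from Slc7a1 and Slc7a2, Slc7a8 and Slc7a7 had a called genotype difference in each condition, with opposite signs. Slc7a8, a light chain of the large neutral amino acid transporters, had 439, 455 and 438 CPM in Lyz2-Cre-Hdac3f/f cells with LPS, against 674, 822 and 817 CPM in Hdac3f/f cells under LPS. Untreated, it had 276, 266 and 253 CPM in Lyz2-Cre-Hdac3f/f cells, against 173, 162 and 174 CPM in Hdac3f/f cells. Slc7a8 was thus lower in every Lyz2-Cre-Hdac3f/f library with LPS (-0.80 ± 0.10, adjusted p = 2.1e-04) and higher in every one without (0.64 ± 0.10, adjusted p = 0.00171), as Acod1 was. Without the first untreated Lyz2-Cre-Hdac3f/f library the untreated difference in Slc7a8 was 0.61 (adjusted p = 0.0108). Of 8 tested genes of this list, 2 rose and 3 fell with LPS in Lyz2-Cre-Hdac3f/f cells and 3 rose and 2 fell in Hdac3f/f cells, against 25.2% up and 27.7% down of all tested genes in Lyz2-Cre-Hdac3f/f cells and 28.0% and 32.1% in Hdac3f/f cells. In Lyz2-Cre-Hdac3f/f cells 2 were higher without LPS, where 5.12% of all tested genes were, and 2 lower with LPS, where 16.9% were. Slc7a7, a light chain of the transporter that exports cationic amino acids, was at 47.1 ± 2.75 CPM in Lyz2-Cre-Hdac3f/f cells with LPS, against 74.4 ± 7.32 CPM in Hdac3f/f cells under LPS (-0.66 ± 0.13, adjusted p = 0.00294). Its untreated difference was 0.43 ± 0.13 (adjusted p = 0.0471), and that call was lost in 14 of 18 other settings. With LPS, 6 were called without the first Hdac3f/f LPS library, and with library totals as the only scaling 2 were higher and 2 lower.

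Of 11 tested enzymes of arginine, proline and creatine metabolism, 6 fell with LPS in Lyz2-Cre-Hdac3f/f cells and none rose, and 7 fell and 1 rose in Hdac3f/f cells (median -0.55 in Lyz2-Cre-Hdac3f/f cells). Of all tested genes, 27.7% fell and 25.2% rose in Lyz2-Cre-Hdac3f/f cells, and 32.1% fell and 28.0% rose in Hdac3f/f cells. With LPS 6 were lower and 1 higher in Lyz2-Cre-Hdac3f/f cells, where 16.9% of all tested genes were lower and 15.7% higher, and without LPS 3 were lower, where 6.66% were. The total of 7 was 4 without the third Hdac3f/f or the first Lyz2-Cre-Hdac3f/f LPS library, and the total of 3 was 1 without the third untreated Hdac3f/f library. Scaled by library totals only, 4 were lower and 3 higher with LPS. Gatm, which uses arginine in the first step of creatine synthesis, was at 7.44 ± 2.41 CPM in Lyz2-Cre-Hdac3f/f cells with LPS, against 13.4 ± 0.893 CPM in Hdac3f/f cells under LPS (-0.85 ± 0.19, adjusted p = 0.00650). Ckb, creatine kinase B, fell with LPS by 2.39 ± 0.25 on the log2 scale in Lyz2-Cre-Hdac3f/f cells and by 2.30 ± 0.25 in Hdac3f/f cells, and was lower in Lyz2-Cre-Hdac3f/f cells both with LPS (-1.32 ± 0.24, adjusted p = 0.00204) and without (-1.22 ± 0.24, adjusted p = 0.00731, or 0.0294 without the first untreated Lyz2-Cre-Hdac3f/f library). The urea cycle genes Cps1 and Otc had 0 counts in all libraries.

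Of 16 tested polyamine genes other than Odc1, 6 rose and 4 fell with LPS in Lyz2-Cre-Hdac3f/f cells, and 5 rose and 5 fell in Hdac3f/f cells (medians 0.12 and -0.14). Of all tested genes 25.2% rose and 27.7% fell in Lyz2-Cre-Hdac3f/f cells and 28.0% rose and 32.1% fell in Hdac3f/f cells. Smox, spermine oxidase, rose by 1.24 ± 0.16 in Lyz2-Cre-Hdac3f/f cells (adjusted p = 3.1e-05) and by 2.07 ± 0.17 in Hdac3f/f cells (adjusted p = 2.3e-07). Paox, the oxidase of acetylated polyamines, fell by 3.30 ± 0.21 on the log2 scale in Lyz2-Cre-Hdac3f/f cells and by 2.46 ± 0.21 in Hdac3f/f cells. With LPS 2 were higher and 4 lower in Lyz2-Cre-Hdac3f/f cells, against 15.7% and 16.9% of all tested genes, among them Sat1, the acetyltransferase of spermidine and spermine, at 163 ± 20.6 CPM, against 288 ± 23.9 CPM in Hdac3f/f cells under LPS (-0.83 ± 0.11, adjusted p = 3.0e-04). That total of 6 was 11 without the first Hdac3f/f LPS library, and 3 without the third Hdac3f/f or the second Lyz2-Cre-Hdac3f/f LPS library. Under library totals the split turned round, with 4 higher and 1 lower, and the LPS responses became 3 up and 6 down in Lyz2-Cre-Hdac3f/f cells and 2 up and 10 down in Hdac3f/f cells. Without LPS 3 were lower, where 6.66% of all tested genes were, and 1 when any untreated library except the first Hdac3f/f one was left out.

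Of 26 tested genes of the tricarboxylic acid cycle and itaconate breakdown, 7 rose and 13 fell with LPS in Lyz2-Cre-Hdac3f/f cells, and 4 rose and 14 fell in Hdac3f/f cells (medians -0.24 and -0.41). Of all tested genes 25.2% rose and 27.7% fell in Lyz2-Cre-Hdac3f/f cells, and 28.0% rose and 32.1% fell in Hdac3f/f cells, so that the share that rose in Lyz2-Cre-Hdac3f/f cells is near that of all genes. The isocitrate dehydrogenase genes Idh1 and Idh2 fell by 2.16 ± 0.11 and 1.98 ± 0.14 on the log2 scale in Lyz2-Cre-Hdac3f/f cells, and by 2.79 ± 0.12 and 1.94 ± 0.14 in Hdac3f/f cells. Sdha, the catalytic subunit of succinate dehydrogenase, the enzyme that itaconate is known to inhibit, fell by 0.92 ± 0.09 in Lyz2-Cre-Hdac3f/f cells (adjusted p = 2.9e-06). In Hdac3f/f cells Sdha was at 134 ± 9.44 CPM with LPS, against 253 ± 19.3 CPM without. Clybl, which acts in the breakdown of itaconate, fell to 1.95 ± 0.274 CPM with LPS in Hdac3f/f cells, against 5.53 ± 0.815 CPM without (adjusted p = 6.9e-05). In Lyz2-Cre-Hdac3f/f cells Clybl was at 2.80 ± 0.528 CPM with LPS, against 5.18 ± 0.854 CPM without. With LPS 6 of the 26 were higher and 1 lower in Lyz2-Cre-Hdac3f/f cells, with Idh1 at 41.5 ± 3.58 CPM, against 23.3 ± 3.25 CPM in Hdac3f/f cells (0.83 ± 0.11, adjusted p = 3.9e-04). The share called is below the 32.6% of all tested genes. That total of 7 was 4 without the second or the third Hdac3f/f or the first or second Lyz2-Cre-Hdac3f/f LPS library. Scaled by library totals only, 14 were higher and 1 lower, and 1 rose and 16 fell with LPS in Lyz2-Cre-Hdac3f/f cells. Without LPS 2 were lower, where 6.66% of all tested genes were, and between 0 and 6 were called with a library left out.

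**Figure D4:**
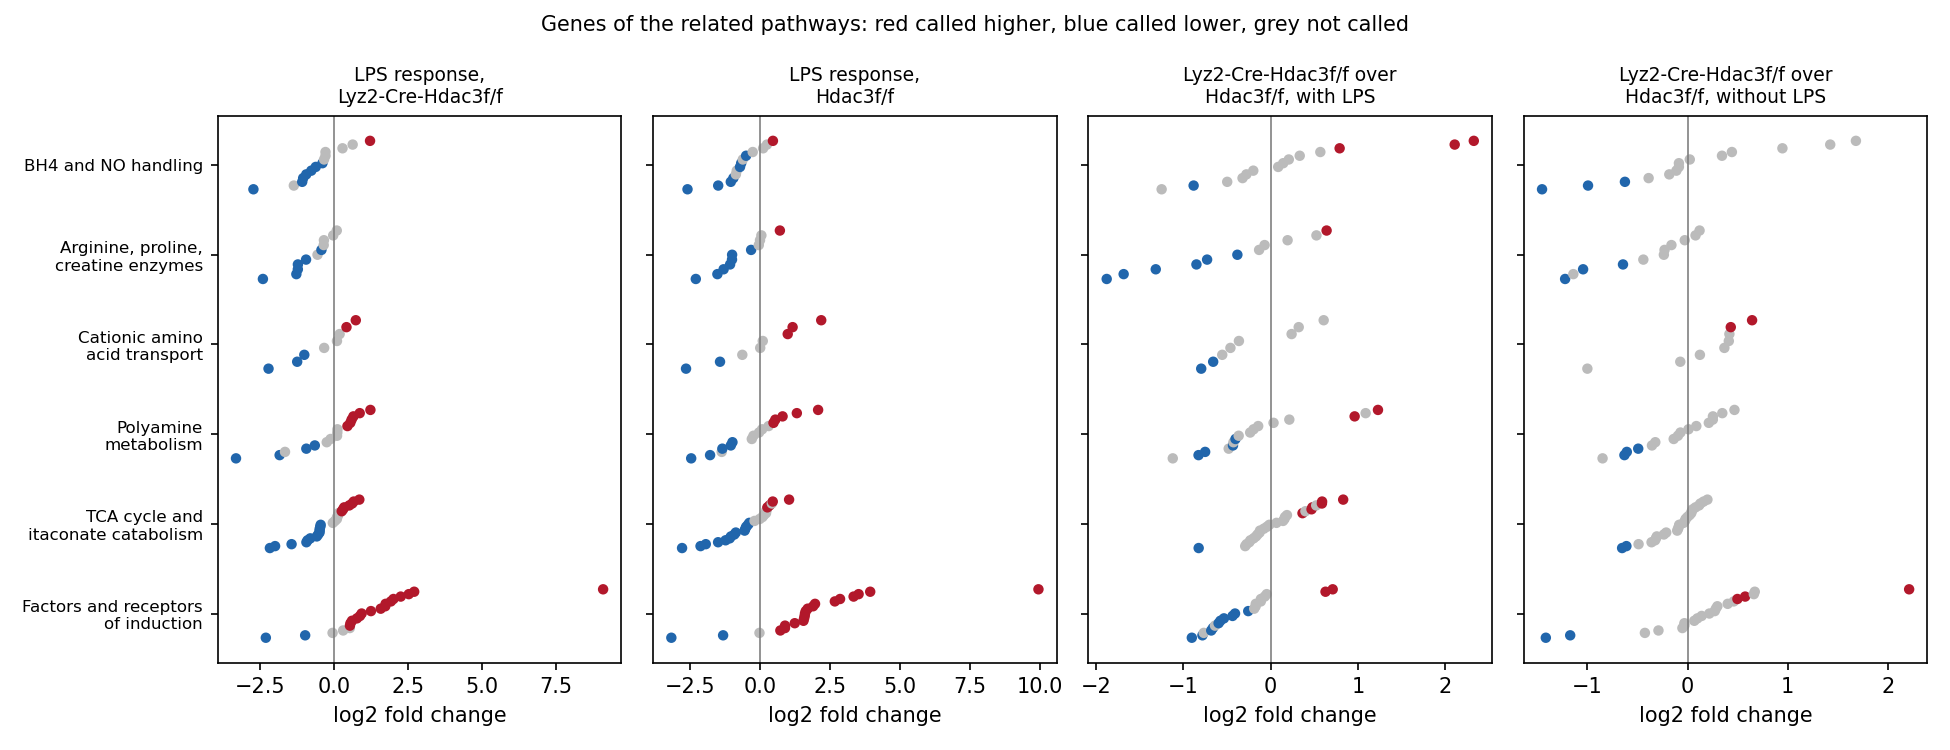
Log2 fold changes of the tested genes of 6 related lists: LPS response in Lyz2-Cre-Hdac3f/f and in Hdac3f/f cells, and Lyz2-Cre-Hdac3f/f over Hdac3f/f with and without LPS. Each point is a gene, sorted by value within its list; red and blue points passed an adjusted p of 0.05 by edgeR as higher and lower, and grey points did not. In the factors and receptors row 16 points are red in the first panel, 18 in the second, and 10 are blue in the third.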

How the data were processed

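RNA-seq of 12 BMDM libraries was analysed from the authors' deposited table. Per the submitters' processing notes, TopHat2 and mm10 were used. The counting tool, annotation and strand setting are not given in the sources used here. The counts are whole-number counts per gene as deposited by the authors. The deposited FPKM values, scaled by the authors to gene length and library size per the file headers, were not used for tests. The authors' deposited log2 fold changes and p-values come from a test that the file headers do not name.

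Counts were tested with edgeR 4.0.16 (R 4.3.3): filterByExpr kept 14286 genes, TMM scaling, 1 coefficient per group over all 12 libraries, quasi-likelihood F-tests with Benjamini-Hochberg adjustment over all tested genes, and SE from the fold change and F. The script was tested on simulated data, for the genotype difference with LPS. It recovered 61.6% of absolute log2 changes of 1 and 85.9% of those of 2, with 2 false calls. A difference that was not called is therefore not shown to be absent. Arg1 and ratios within libraries were compared by exact two-sided permutation tests (scipy 1.17.1). Alternatives were DESeq2 1.42.0 (its size factors and its Wald test), library totals, no filter, only the groups compared, a replicate block, and each library left out. TPM values were computed from counts and deposited gene lengths. All counts of a library were used, so its total is its depth.

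The 10 members and the lists were chosen with earlier results of these data known. All members are named, and of each list at most the 4 called genes of largest change per comparison, plus label checks and genes of nearest pattern. In 54409 identifiers shared with GENCODE M21, 98.3% had the same coordinates. Replicates of a group differed beyond counting noise, with chi-square per gene of 8.36 to 47.9.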

Additional observations from a re-analysis of the deposited data

Results flagged for a closer look

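The LPS response differed between the genotypes, by the interaction term of edgeR's quasi-likelihood fit (adjusted p under 0.05), for 5 of the 9 tested members. Over all tested genes 8.12% were called, 5.54% with a lower response and 2.58% with a higher one. In log2 units, as Lyz2-Cre-Hdac3f/f less Hdac3f/f, the 5 members were Nos2 at -2.96, Acod1 at -1.91, Arg2 at -1.26, Gch1 at -1.18 and Ass1 at -1.15. The calls of Nos2, Acod1 and Ass1 were kept in all 17 other settings run. Those of Arg2 and Gch1 were lost in 7 and 6 of 17. Among the named genes of the related lists the response was larger, or the fall smaller, in Lyz2-Cre-Hdac3f/f cells for Nostrin (1.56), Pparg (0.88), Cyb5r4 (0.77) and Idh1 (0.63). It was lower for Ifnb1 (-2.98), Azin2 (-1.64), Slc7a8 (-1.44), Irf1 (-1.40), Slc7a7 (-1.09), Il4ra (-0.98), Smox (-0.84), Slc3a2 (-0.73) and Sat1 (-0.69). The Ifnb1 value rests on few counts, with sums of 39 in Lyz2-Cre-Hdac3f/f cells with LPS, 54 in LPS-treated Hdac3f/f cells, 34 in untreated Lyz2-Cre-Hdac3f/f cells and 7 in untreated Hdac3f/f cells. The calls of Slc7a8, Slc7a7, Irf1 and Il4ra were kept in all 17 other settings run, and each of the other list genes lost its call in some. Those of Smox, Slc3a2, Cyb5r4 and Pparg were lost in 11, 10, 8 and 8 of 17, that of Ifnb1 in 9 of 16, and those of Idh1, Azin2, Nostrin and Sat1 in 6, 5, 4 and 4 of 17.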

How the results depend on the processing

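Of 801 member values recomputed under other settings, 751 kept their direction and side of the threshold, 26 calls were lost, 11 were gained and 13 values reversed. With library totals only, Asl reversed in the LPS response of Lyz2-Cre-Hdac3f/f (-0.14) and Hdac3f/f cells (-0.21) and in the interaction (0.076), as did Odc1 in the response of Lyz2-Cre-Hdac3f/f cells (-0.13) and Slc7a1 (0.26) and Odc1 (0.26) in the genotype difference with LPS. With only the groups compared, Slc7a1 in that difference was 0.0125. None of these values was called in both settings, and the cause was not tested. Leaving out a library, the genotype difference with LPS ran from -0.52 to 0.0129 for Nos2, -0.0715 to 0.0547 for Slc7a1 and -0.17 to 0.20 for Odc1. The members called ran from 7 to 8 and 9 to 10 in the LPS responses of Lyz2-Cre-Hdac3f/f and Hdac3f/f cells, 3 to 5 without LPS, 2 to 4 with LPS and 3 to 5 in the interaction. The filter on low counts was run again in each of these fits, so Arg1 could enter, and it is among the 10. The genotype difference in Arg2 share ran from -1.13 to 0.320 points without LPS and from -0.288 to 0.181 with LPS. Over all genes, DESeq2's Wald test called 1775 interactions, against 1160 by edgeR, and leaving out a library gave 530 to 1995. With the replicate block the members called were 7, 9, 4, 3 and 5, as without it. Same-numbered libraries correlated at -0.404 to 0.217, with 5 of 18 pairs over 0.1, and differently numbered ones at -0.357 to 0.422. Of 12 libraries, 6 correlated best with their own number. With 3 libraries in each group, these values neither show nor exclude a pairing by number. Low counts limit Arg1 and untreated Nos2.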
